A study of Neurospora crassa with 12 samples.

Results

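Tail-to-tail antisense transcripts are RNAs that begin downstream of an annotated gene, on the opposite strand, and run back across that gene's 3′ end without reaching its 5′ end. In the merged transcript annotation of Neurospora crassa analysed here, 802 transcripts had this arrangement. They were chosen by position. Each carries no annotated gene identifier, has exonic bases (1 bp or more) in common with a gene of the opposite strand but with none of its own strand, passes the 3′ end of its partner and stops short of the partner's 5′ end. The partner is the opposite-strand transcript with which it shares most exonic bases. The 802 made up 32.9% of the 2440 antisense transcripts (exact 95% interval 31.0 to 34.8%), among 10690 unannotated and 21475 transcripts in all. They came from 666 assembly genes, the loci into which the assembler groups overlapping transcripts, and they lay over 665 of the 9730 annotated genes, or 6.83% (6.34 to 7.35%). Intervals on shares are exact Clopper-Pearson 95% intervals and those on medians are exact order-statistic intervals, and both cover counting error only. Intervals over transcripts treat them as independent, although 227 of the 802 came from 91 assembly genes with 2 or more of them.

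The study performed RNA-seq on ribo-depleted RNA from mycelia of Δset-1, which lacks the histone H3K4 methyltransferase KMT2, of Δdim-5, which lacks the H3K9 methyltransferase KMT1, and of WT. Cultures grown for 2 days at 25 °C all spent 24 h in darkness. They were harvested from the dark (DD24) or after a light pulse of 30 min that followed the darkness (LP30). This gave the 6 groups Δset-1 LP30, Δset-1 DD24, Δdim-5 LP30, Δdim-5 DD24, WT LP30 and WT DD24, with 2 replicates each. The deposited file analysed is 1 annotation merged over all 12 libraries. It holds positions, strands and exons without an expression level or depth per library, so no antisense transcript could be assigned to a strain or to light, and no replicate spread exists for any value below.

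Natural antisense transcripts (NATs) arise when both strands of a locus are transcribed. Where 2 transcription units run towards each other, their RNAs can pair over the shared 3′ sequence, and the polymerases that make them can meet on the template. In Neurospora such convergent transcription is known as a source of small interfering RNAs and of DNA methylation at some loci, and the best studied NAT is qrf, the antisense RNA of the clock gene frq. At frq, qrf starts beyond the 3′ end of the gene and traverses it.

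The arrangement is shown best by the loci of genes whose roles are known. The gene frq, which encodes the negative element of the circadian oscillator, is a plus-strand gene of chromosome VII and had 2 tail-to-tail transcripts (NC12 coordinates throughout, first and last base). MSTRG.12826.4 (chromosome VII, 3131682 to 3136847, minus strand) had 2 exons and 5096 nt of exon. It started 383 bp past the frq 3′ end, shared 4215 bp with the 4327 nt of frq exon (97.4%) and stopped 42 bp short of the frq 5′ end. MSTRG.12826.5 (3131688 to 3136727) had 3 exons, started 263 bp past the 3′ end, shared 4115 bp (95.1%) and stopped 48 bp short. Neither transcript shared an intron with frq. The next gene downstream, NCU02264, is transcribed in the same direction as frq, and its annotated start lay 485 and 605 bp from the starts of the pair. Both transcripts thus covered nearly the whole of frq and lay within 50 bp of the limit beyond which a transcript spans its gene. A further 2 antisense transcripts at frq passed its 5′ end as well and are counted as spanning it.

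The gene set-1, which encodes the H3K4 methyltransferase removed in Δset-1, had a much shorter overlap than frq. MSTRG.9382.1 (chromosome V, 3235981 to 3236429, minus strand) was a single exon of 449 nt that overlapped the last 118 bp of the gene, 2.14% of its exonic length, and reached 331 bp past its 3′ end. Its start lay 279 bp from the annotated start of vma-1, a subunit gene of the vacuolar ATPase that runs in the same direction as set-1. A second tail-to-tail transcript touched set-1 at its other end. MSTRG.9380.1 covered 705 bp of the upstream gene NCU01205, reached 646 bp past its 3′ end and began 216 bp inside set-1. Libraries of Δset-1 and of the strains that carry set-1 are pooled in the annotation, so which of them gave these 2 transcripts cannot be told apart.

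The gene gpd-1, which encodes the glycolytic enzyme glyceraldehyde-3-phosphate dehydrogenase, had an antisense transcript of 4 exons. MSTRG.4341.1 (chromosome II, 3180203 to 3183353, minus strand) shared 1407 bp with gpd-1, or 93.4% of its exonic length, reached 1108 bp past the 3′ end and had introns at the positions of both introns of gpd-1 (2 of 2). The gene on the other side of the gap, NCU01527, converges on gpd-1 and had a tail-to-tail transcript of its own, MSTRG.4342.1, which shared 2306 bp with it and reached 1097 bp past its 3′ end. The starts of these 2 antisense transcripts lay between the genes, and the antisense transcripts shared 473 bp of exon with each other. In 9 pairs of convergent genes both genes were partners in this way, and gpd-1 with NCU01527 was the 1 pair of the 9 whose antisense transcripts overlapped each other. The crp-7 gene, which encodes a cytosolic ribosomal protein, had 2 members. MSTRG.3292.1 had 3 exons, covered 623 bp (90.8% of its partner transcript) and shared both introns of that transcript (2 of 2), while MSTRG.3292.2 had 1 exon and covered 374 bp (53.0%).

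**Figure D1:**
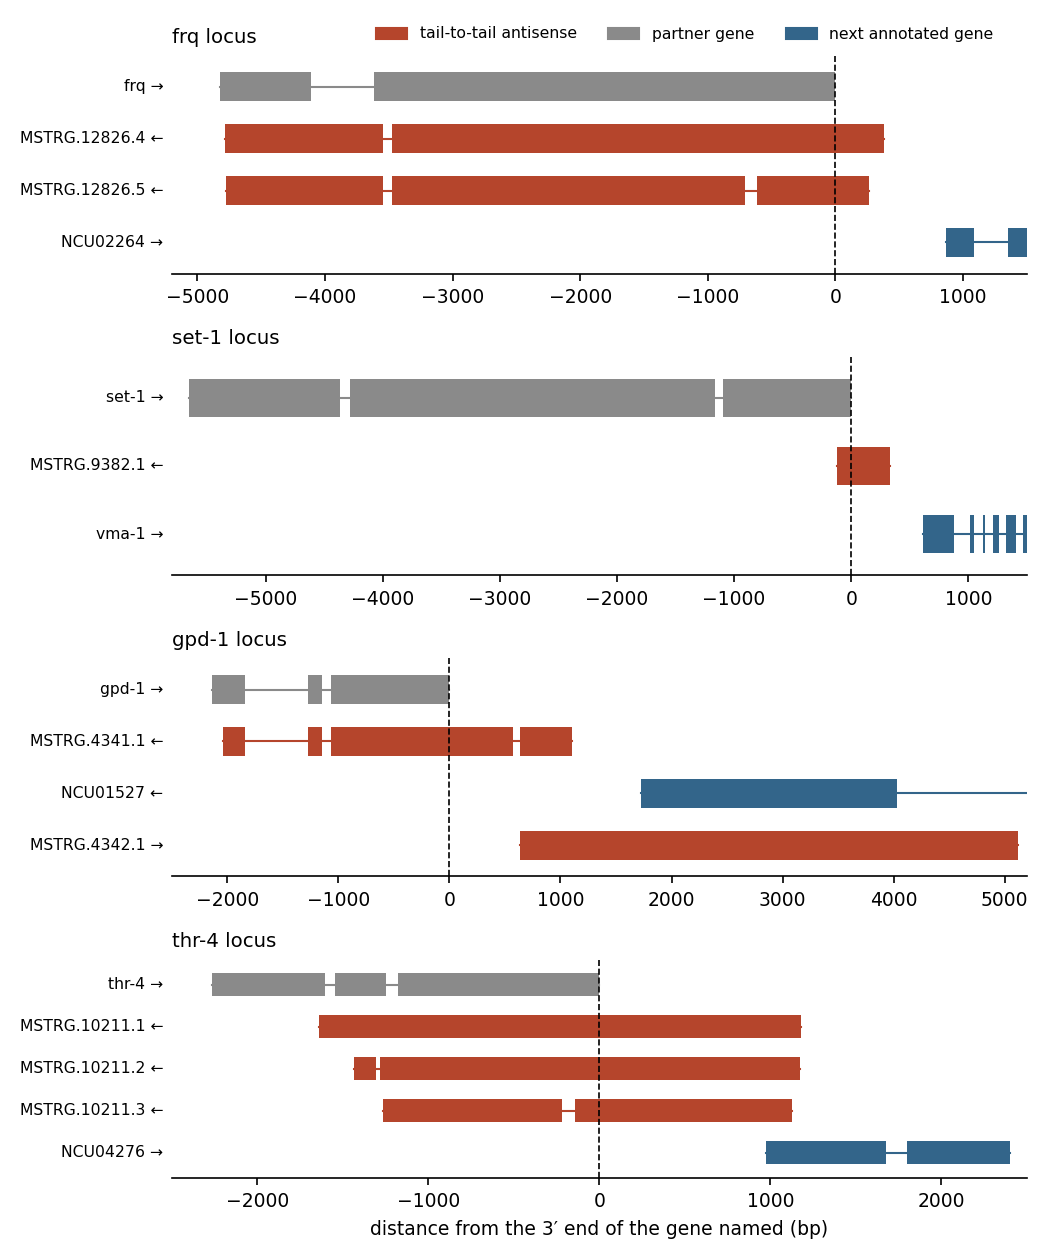
Maps of 4 loci, with distance from the 3′ end of the gene named (bp) on the horizontal axis and the gene drawn left to right. Boxes are exons, arrows beside the names give the direction of transcription, red marks tail-to-tail antisense transcripts, grey the partner gene and blue the next annotated gene, cut off at the edge of the view. The antisense transcripts cover 97.4% and 95.1% of frq exon, 2.14% of set-1 and 93.4% of gpd-1, and those of thr-4 begin inside the next gene.

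The members varied widely around this pattern. Exonic length had a median of 1233 nt (1155 to 1324; quartiles 661 and 1986; range 206 to 8048). The median of head-to-head transcripts, which pass the 5′ end of their partner instead, was 1122 nt (1033 to 1274), that of transcripts inside a gene 346 nt and that of transcripts spanning a gene 2589 nt. The exonic overlap of tail-to-tail transcripts with the partner had a median of 543.5 bp (491 to 622) and ranged between 2 and 5249 bp. It was under 100 bp in 85 members (10.6%). The overlap had a median of 309 bp (241 to 395) in head-to-head transcripts and of 155 bp (141 to 167) in the 935 annotated convergent gene pairs that share exon. These lengths follow in part from the rule, and no test was made on them.

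As a share of the partner's exonic length, the overlap had a median of 31.1% (26.6 to 35.2%). In 260 members (32.4%) the overlap made up 50% or more of the partner, and in 54 (6.73%) it made up 90% or more. Past the gene, the median reach beyond the 3′ end was 425.5 bp (383 to 465), with quartiles of 156 and 923 bp. The reach was under 100 bp in 135 members (16.8%) and over 1000 bp in 184 (22.9%). In 319 members (39.8%; 36.4 to 43.3%) more exonic bases lay past the partner's span than within it. Within the gene, the antisense transcripts ended a median of 640 bp upstream of the partner's 3′ end. As a share of the partner's span, this depth had a median of 31.7%. The distance left to the partner's 5′ end had a median of 1391 bp.

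**Figure D2:**
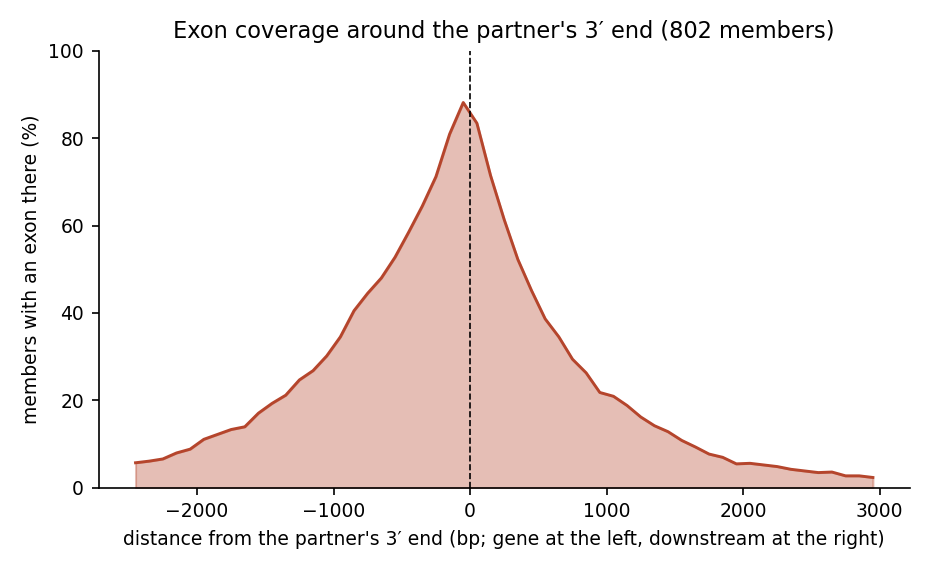
Percent of the 802 members with an exon in each 100-bp bin, by distance from the partner's 3′ end (bp), with the gene at negative and the downstream side at positive distances. Coverage was 88.2% in the bin just inside the gene and 83.4% in the bin just past it, and fell to 30.2% at 1050 bp inside and 20.9% at 1050 bp past the end.

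In 558 members (69.6%) the overlap touched the last exon of the partner and no other exon. For the 667 members whose partner has 2 or more exons, 423 (63.4%) touched the last exon alone and 110 (16.5%) touched every exon. The remaining 135 members had a single-exon partner.

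The longest overlap, 5249 bp, was that of MSTRG.2724.1 on chromosome I (8033324 to 8039349), a single exon of 6026 nt over myo2, a myosin gene. Its start lay 928 bp from that of al-1, the phytoene desaturase gene of carotenoid synthesis, which is transcribed away from it. MSTRG.10551.1 followed with 4926 bp over NCU07116 (79.9% of its exonic length) and MSTRG.11823.1 with 4202 bp over ena-1, a cation-transporting ATPase gene (87.7%). The 2 transcripts at frq complete the 5 longest overlaps.

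The longest reach belonged to transcripts that mostly lie outside their gene. MSTRG.4909.1 (chromosome III, 645232 to 653150) extended 7789 bp past NCU05726 and overlapped it by 130 bp, and MSTRG.2667.1 extended 5229 bp past NCU00584 and overlapped it by 41 bp. MSTRG.11238.1 reached 4341 bp past NCU03888 with an overlap of 526 bp, and MSTRG.9859.1 reached 4010 bp past NCU09556 with an overlap of 32 bp. MSTRG.9619.1, the longest member at 8048 nt, combined a reach of 5222 bp with an overlap of 2667 bp with NCU01394. The other 4 of these overlapped between 0.832% and 21.1% of their partner's exonic length.

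Members just inside and just outside the rule show how close its limit runs. In 14 members the reach was 1 to 10 bp, with 1 bp for MSTRG.7737.1 at NCU08662, 2 bp for MSTRG.2223.1 at NCU00917 and for MSTRG.8754.1 at NCU04581, and 4 bp for MSTRG.1766.1 at NCU16397 and for MSTRG.7476.1 at NCU04413. On the other side, 16 transcripts classed as inside their gene started 0 to 10 bp short of the 3′ end, among them MSTRG.2033.1 at NCU07382, MSTRG.2287.1 at NCU00881, MSTRG.3285.1 at NCU08621 and MSTRG.8605.1 at NCU04672 at 0 bp and MSTRG.13093.1 at NCU05785 at 1 bp. At the 5′ limit, 5 members stopped 0 to 10 bp short of the partner's 5′ end and 5 spanning transcripts passed it by 1 to 10 bp.

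**Figure D3:**
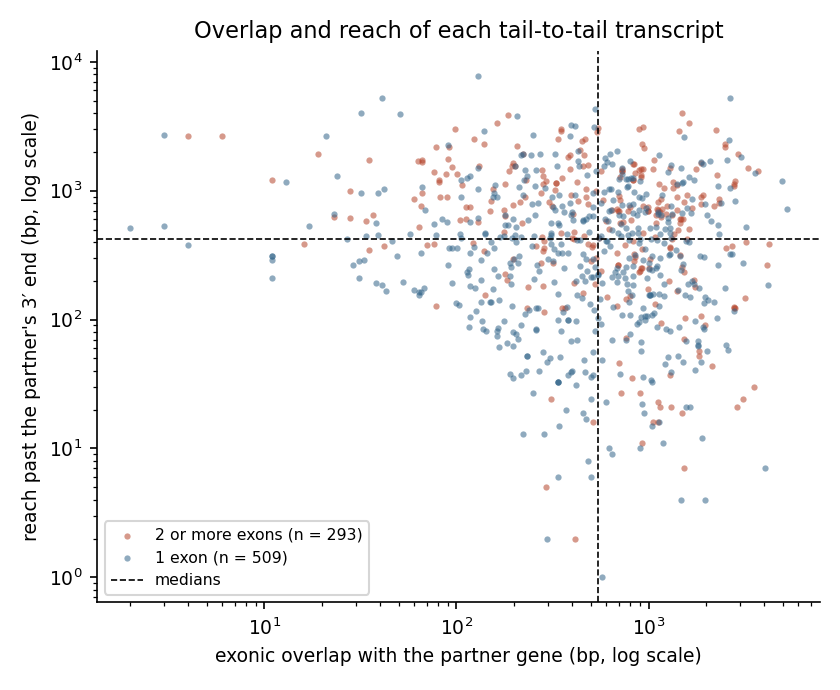
Exonic overlap with the partner gene (bp, log scale) against reach past the partner's 3′ end (bp, log scale) for each of the 802 members. Red points are the 293 members with 2 or more exons, blue points the 509 with 1 exon, and dashed lines the medians of 543.5 and 425.5 bp. Points spread over overlaps of 2 to 5249 bp and reaches of 1 to 7789 bp, and an empty corner at low overlap and low reach reflects the shortest exonic length of 206 nt.

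Most tail-to-tail transcripts were unspliced. A single exon was found in 509 members (63.5%; 60.0 to 66.8%), 2 exons in 205, 3 in 69, 4 in 13 and 5 in 4. MSTRG.1950.2 with 7 and MSTRG.1950.3 with 8 exons shared a locus at NCU09213 on chromosome I with MSTRG.1950.1, which had 5. The other members among the 5 with most exons were MSTRG.1550.2 over NCU03183 and MSTRG.4296.3 over NCU01564, with 5 exons each. A tie at 5 exons, settled by exonic length, left out MSTRG.2967.1 over NCU02928. The 3 transcripts at NCU09213 reached between 3014 and 3116 bp past that gene and overlapped it by 548 to 937 bp.

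For a count per assembly gene, the 1 transcript with the largest exonic overlap was kept at each locus. The transcript kept had a single exon at 498 of 666 tail-to-tail loci (74.8%; 71.3 to 78.0%), against 216 of 273 head-to-head loci (79.1%; 73.8 to 83.8%). A locus that also held spliced transcripts thus counted as single-exon where the transcript kept was unspliced. The difference of -4.35 percentage points (95% interval -9.93 to 1.74) did not pass Fisher's exact test (2-sided p = 0.178, adjusted p = 0.356 by Benjamini-Hochberg over 2 comparisons). With all transcripts counted, which includes several from the same locus, it was -8.06 points (-13.9 to -1.80) and passed (adjusted p = 0.0256, Fisher's exact test). Transcripts of 1 annotation are not replicates, so these tests describe this annotation.

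The 293 spliced members held 343 distinct introns, of which 172 (50.1%) lay past the partner's 3′ end, 132 (38.5%) within its span and 39 (11.4%) across the end. Intron length had a median of 83 nt (79 to 94), against 76 nt (75 to 76) for the 17854 distinct introns of annotated transcripts. Few introns mirrored those of the gene. Of the 343, 14 (4.08%) had both ends at the position of an annotated intron on the other strand, and 10 of the 293 spliced members (3.41%; 1.65 to 6.19%) shared an intron with the partner gene, among them those at gpd-1 and crp-7. The share was 1.16% in head-to-head transcripts (1 of 86), 1.24% in spanning transcripts (2 of 161) and 67.4% in transcripts inside a gene (116 of 172). With the same 1 transcript kept per assembly gene, 9 of the 168 spliced tail-to-tail transcripts kept (5.36%) shared an intron, against 1 of 57 head-to-head ones (1.75%). This difference of 3.60 points (-4.34 to 8.34) did not pass Fisher's exact test either (2-sided p = 0.458, adjusted p = 0.458). Splice signals of a shared intron would be read on 1 strand, and which strand these introns fit was not tested.

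The start of the antisense transcript lies in the gap between the partner and the next annotated gene, or beyond it. That next gene was tandem, transcribed in the same direction as the partner, for 658 members (82.0%; 79.2 to 84.6%), and convergent, facing the partner, for 144 (18.0%). Over all 9730 annotated genes, the next gene past the 3′ end was tandem for 44.7% and convergent for 55.2%. Part of this contrast is built into the rule. A transcript that shares exon with an annotated gene on its own strand is left out, and 1948 of the 5368 convergent next genes overlap or abut the gene they face. Among the 7720 genes with a gap to the next gene, 4300 (55.7%) had a tandem one.

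The share of genes with a tail-to-tail transcript varied with the length of the gap, most of all where the next gene was convergent. With a tandem next gene, the share of genes that were partners was 9.38% (135 of 1440) for gaps of up to 500 bp, 13.9% (135 of 970) for 501 to 1000 bp, 13.5% (121 of 897) for 1001 to 2000 bp, 16.4% (117 of 713) for 2001 to 5000 bp and 11.8% (33 of 280) above 5000 bp. With a convergent next gene, the share was 1.31% (20 of 1526), 3.07% (21 of 684), 4.82% (29 of 602), 7.96% (36 of 452) and 10.9% (17 of 156) over the same classes. In the longest gaps the 2 intervals overlapped (8.25 to 16.2% with a tandem next gene, 6.48 to 16.9% with a convergent one), while in every shorter class they did not. Short gaps leave little room for a transcript that must not meet the convergent gene, so these shares are a description.

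**Figure D4:**
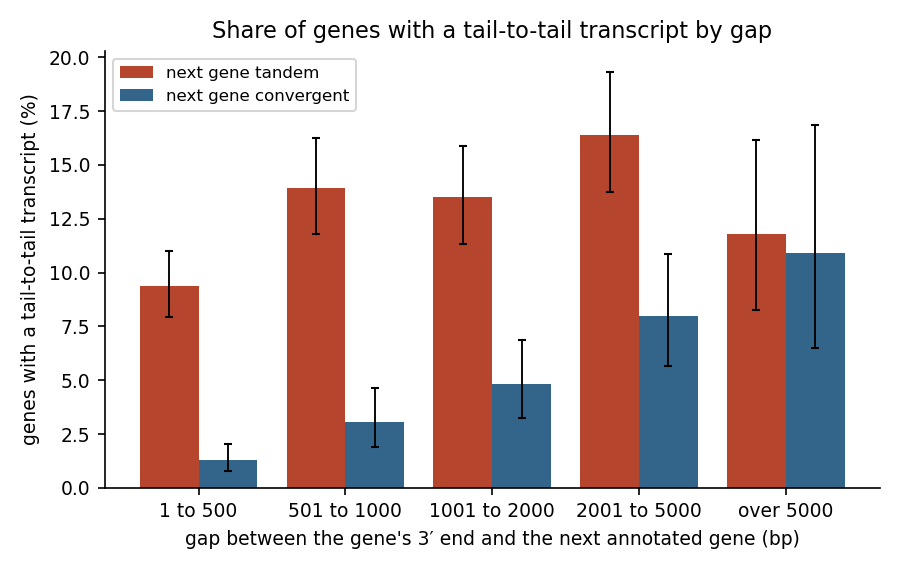
Percent of annotated genes that have a tail-to-tail transcript, by the gap to the next annotated gene (bp) and by whether that gene is tandem (red) or convergent (blue). Error bars are exact 95% intervals. The tandem bars run between 9.38% and 16.4% and the convergent bars between 1.31% and 10.9%.

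Where the next gene was tandem, the antisense transcript often began a short way upstream of that gene's annotated start, pointing away from it. The distance between the starts had a median of 480.5 bp (400 to 532). Of the 658 members, 291 (44.2%; 40.4 to 48.1%) started within 500 bp upstream of the tandem gene, which is 36.3% of all 802 members, while 44 (6.69%) started inside it and 8 began beyond its far end and ran through it. Part of this share follows from the gaps. For 135 of the 541 partner genes with a tandem next gene the gap was at most 500 bp, so any start within it counts as near. The share expected from gap length was not computed. Starts were not densest next to the gene. The bin from 0 to 99 bp held 21 members, that from 100 to 199 bp 67, that from 200 to 299 bp 101 and that from 300 to 399 bp 62. With the assembled extensions of the next gene taken into account, 74 members started past its near edge, against 52 with the annotated edge. For the 144 members with a convergent next gene, the start lay a median of 1138 bp (630 to 1410) from that gene's 3′ end and within 500 bp of it in 43 (29.9%; 22.5 to 38.0%). The gaps themselves differed, with a median of 1130 bp for tandem and 1740 bp for convergent next genes. The reach covered a median of 38.3% of the gap where the next gene was tandem and 24.9% where it was convergent.

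**Figure D5:**
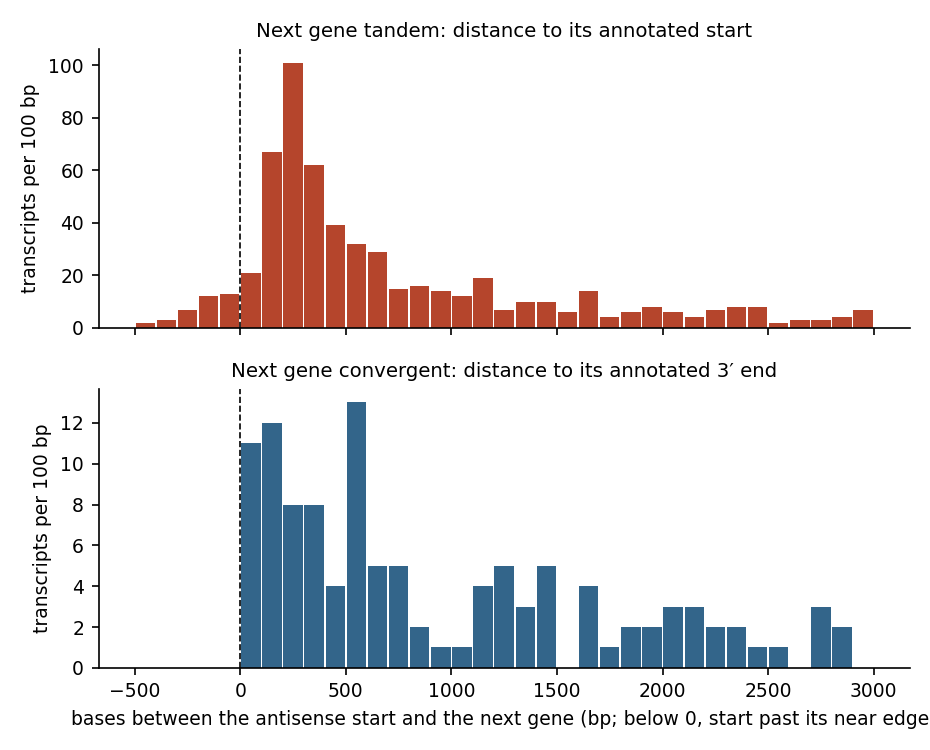
Number of members per 100-bp bin of distance between the antisense start and the next annotated gene (bp), for tandem next genes above (658 members, distance to the gene's start) and convergent ones below (144 members, distance to its 3′ end). Bins between -500 and 3000 bp are drawn, and negative values are starts past the near edge of the next gene. The tandem panel peaks at 101 members between 200 and 299 bp.

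Named partners gave examples of these near starts. MSTRG.5638.1 began 57 bp from the next gene and overlapped 167 bp of trp-1, and MSTRG.11730.1 began 95 bp from the next gene and overlapped 1132 bp of trp-2. Both partners act in tryptophan synthesis. MSTRG.1331.1 over aro-7, a gene of aromatic amino acid synthesis, began 124 bp from cyt-26. MSTRG.11442.1 over nuo51, a subunit gene of mitochondrial complex I, began 133 bp from NCU04045. MSTRG.1032.1 began 145 bp from ad-5, a gene of purine synthesis, ran through 1119 bp of gap and covered 96.9% of hsp78, a mitochondrial chaperone gene. Its overlap was 2781 bp, and it stopped 90 bp short of the hsp78 5′ end. The gap to the next gene was 199 bp at trp-1, 223 bp at trp-2, 508 bp at aro-7, 164 bp at nuo51 and 1264 bp at hsp78. At trp-1, trp-2 and nuo51 the gap alone thus placed any start within it near the next gene.

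Of the 20 light and clock genes, 9 were the next gene of a member at any distance. Of the 9, 2 (phr and bli-4) were tandem with a member starting within 500 bp. Partners made up 665 of the 9730 annotated genes, but the share of all genes that are the next gene of a member was not computed. The 9 were looked up after the values were seen, so their count is a description and was not tested. The starts of the 2 transcripts over crp-7 lay 311 and 359 bp from phr, the DNA photolyase gene. The starts of MSTRG.4495.1 and MSTRG.4495.2, both over NCU08697, lay 245 and 246 bp from bli-4, a blue-light-induced gene, and, outside this list, that of MSTRG.12599.2 over NCU02436 lay 180 bp from the histone gene hH2A. The start of the antisense transcript upstream of wc-1, which encodes the blue-light receptor of the White Collar complex, was further off, at 1037 bp, and that upstream of the clock-controlled gene ccg-1 lay at 1601 bp. The photoreceptor gene vvd faced its neighbour NCU03966, and the antisense transcript of that neighbour, MSTRG.11339.1, began 710 bp from the vvd 3′ end. The other 4 were the tandem genes phy-1 at 2216 bp, eas at 5403 bp and csp-1 at 11022 bp, and the convergent gene adv-1 at 1269 bp.

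In 52 members (6.48%) the transcript shared exon with 2 annotated genes on the other strand. In all 52 the second gene was the tandem next gene, whose 5′ end the transcript crossed on its way to the partner. In 44 cases the arrangement towards the second gene was head-to-head, and in 8 the transcript spanned it. The overlap with the second gene had a median of 172 bp (range 5 to 1587). MSTRG.9619.1 shared 1587 bp with NCU01393, which it spanned, and 2667 bp with NCU01394. MSTRG.1871.1 and MSTRG.1871.2 each shared 924 bp with NCU08355 as a second gene, and MSTRG.13114.1 and MSTRG.4942.1 each shared 836 bp with theirs.

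Some partners were neighbours. For 45 of the 541 partner genes with a tandem next gene (8.32%; 6.13 to 11.0%) that gene was a partner too, against 6.83% of all genes that were partners. These formed 38 runs of 2 genes, 2 runs of 3 and 1 run of 4. The run of 4 lay on the minus strand of chromosome V and comprised amph-1 (NCU01069), NCU01068, NCU01067 and lao (NCU01066), which encodes an L-amino acid oxidase. Their antisense transcripts were 4 separate single-exon transcripts. The overlap was 795 bp at amph-1, 1184 bp at NCU01068, 337 bp at NCU01067 and 339 bp at lao, and the reach was 411 bp, 11 bp, 158 bp and 329 bp in the same order.

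Most partners had a single tail-to-tail transcript. There was 1 member over 573 partner genes, 2 over 64, 3 over 18, 4 over 6, 5 over 2, 6 over 1 and 7 over 1. The gene with 7 was NCU01976 on chromosome I, whose transcripts reached 21 to 147 bp past its 3′ end and shared 1150 to 3158 bp with it. NCU03534 had 6, which reached 1209 to 1473 bp, NCU02928 had 5 (690 to 699 bp), NCU04289 had 5 (11 to 23 bp) and NCU00298 had 4 (1457 to 1499 bp). At NCU04289 the 5 starts lay within 12 bp of each other, while the ends spread over 378 bp. The starts spread less than the ends at NCU01976, NCU02928 and NCU00298 too. At NCU03534 it was the reverse, with starts spread over 264 bp and ends over 58 bp. In the 91 assembly genes with 2 or more members, 227 members in all, the starts of 1 locus spread over a median of 56 bp (37 to 85) and the ends over 133 bp (78 to 217), and the starts spread less than the ends in 53 loci (58.2%; 47.4 to 68.5%).

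The partner genes were set beside all annotated genes in the features that the file holds. Their longest annotated transcript had a median of 2074 nt (1933 to 2162), against 1940 nt (1912 to 1969) over all genes. It had a single exon in 17.1% of partners (14.4 to 20.2%), against 18.4% of all genes, and 38.0% of partners (34.3 to 41.9%) had an unannotated isoform, against 36.4% of all genes. In 76 partner genes (11.4%) an isoform extended past the annotated 3′ end, by a median of 286.5 bp. The share of all annotated genes with such isoforms was not computed. With the 3′ end taken from these isoforms, 765 of the 802 transcripts still passed it and 37 then lay inside the gene. Another antisense arrangement was also present at 99 of the 665 partner genes (14.9%), with transcripts inside the gene at 54, spanning it at 24 and head-to-head to it at 22. Over all 9730 annotated genes, transcripts lay inside 871 genes, spanned 283 and were head-to-head to 272. The joint share over all genes was not computed, and no difference was tested.

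Members lay on all 7 chromosomes, 421 of them on the plus strand and 381 on the minus strand. The share of genes that were partners was lowest on chromosome II, at 4.77% (49 of 1028; 3.55 to 6.25%), and highest on chromosome VI, at 8.20% (81 of 988; 6.56 to 10.1%). The other chromosomes lay between 5.64% and 7.59%.

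The gene lists, chosen around the study's pathways and common control genes, included 4 partners, frq, set-1, gpd-1 and crp-7. There was 1 partner each among 20 light and clock genes, 8 genes of other histone methylation, 9 histone and housekeeping genes and 7 ribosomal protein genes recognised by symbol. None of 5 carotenoid synthesis genes, 6 conidiation genes, 12 genes of H3K9 and DNA methylation or 8 RNA interference genes was a partner. A count of 0 allows a share of up to 52.2% for 5 genes and 26.5% for 12 genes (upper bounds of the exact 95% intervals). Among 11 loci the study discussed, frq was the 1 partner. Against 6.83% of all genes, lists of this size cannot be told from the background.

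A list of 66 genes of amino acid synthesis was put together by symbol after the partners had been seen, so its count is a description. Of the 66, 14 (21.2%) were partners, with 17 members over them, against 6.83% of all genes. Among the 1118 genes with a RefSeq symbol, 80 were partners. An interval on a list drawn from these same data would have no meaning as a test, so none is given, and the difference was not tested. Among these were hom-1, which encodes homoserine dehydrogenase and shared 827 bp with its antisense transcript, leu-1, a gene of leucine synthesis with 57 bp, and arg-1, which encodes argininosuccinate synthase and shared 410 and 351 bp with its 2 transcripts. The am gene, which encodes the NADP-dependent glutamate dehydrogenase, shared 162 bp with a transcript of 3 exons that reached 3324 bp past it. The eth-1 gene, which encodes S-adenosylmethionine synthetase, shared 934 bp. At cys-11, a gene of sulfate assimilation, the overlap was 1657 bp or 64.3% of its exonic length. The thr-4 gene had 3 members, MSTRG.10211.1 to MSTRG.10211.3 on chromosome V, with overlaps of 1516, 1343 and 1127 bp. All 3 began between 152 and 205 bp inside the next gene, NCU04276. Of the 17 members over this list, 14 (82.4%) had a tandem next gene, against 82.0% of all members, and the next gene was tandem for 28 of the 66 listed genes (42.4%), against 44.7% of all genes. Among 53 protein kinase genes with stk symbols, a list also chosen after seeing the partners, 4 were partners (7.55%), near the 6.83% of all genes.

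Some tail-to-tail transcripts ran over noncoding RNA genes that RefSeq lists and the merged annotation does not. A tRNA gene was overlapped by 31 members (3.87%; 2.64 to 5.44%), and 22 of the 31 contained a whole tRNA gene. Together they touched 28 of the 399 tRNA genes, and 27 of 33 such overlaps lay past the partner's span, in the gap. The share was 0.662% in head-to-head transcripts (2 of 302; 0.0803 to 2.37%), 0 of 963 in transcripts inside a gene (up to 0.382%), 1.88% in spanning transcripts (7 of 373) and 2.72% in intergenic transcripts (77 of 2834). Other noncoding RNA genes of RefSeq were overlapped by 41 members (5.11%), against 4.97% of head-to-head and 5.43% of intergenic transcripts. At arg-1 both members ran over the RefSeq ncRNA gene NCU14015, with 749 and 710 of its 818 bp. The RefSeq table gives no strand, so whether these genes lie on the strand of the antisense transcript was not tested.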

How the data were processed

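Total RNA from mycelia was ribo-depleted and sequenced as 100 bp paired-end reads, per the labels. The study states that strand was preserved, although the name of the library kit does not say so, and strands are used here as deposited. The authors mapped reads to NC12 with HISAT2 2.1.0, assembled each sample with StringTie 1.3.3b at default settings and merged the assemblies with the NC12 annotation. Because replicates, strains and harvest times are pooled in the merge, a transcript built from 1 library and 1 built from all 12 look alike. The other deposited value, a score, is a constant or a dot written by StringTie and was not used as a level. Depth per library is unknown from the file.

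Each transcript was compared with all annotated exons with scipy 1.17.1, numpy 2.4.6 and pandas 2.3.3 under Python 3.11.15, and plotted with matplotlib 3.10.9. An intron was shared when both ends were equal. Symbols and noncoding RNA genes came from the RefSeq table of assembly NC12, which held 9729 of the 9730 annotated genes, all 9729 with the same ends. The single-exon and shared-intron shares were compared with head-to-head transcripts by Fisher's exact test, with a threshold of 0.05. The code was tested on simulated data (400 of 400 planted arrangements recovered). For 2440 of 2440 antisense transcripts, a base-by-base recomputation gave the same partner and overlap and no exon shared on their own strand. The arrangement itself was checked on the planted transcripts only.

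The members and gene lists were chosen with earlier results of these data known. Named members were the 5 with the longest overlap, the longest reach, the most exons, the largest overlap among members over 2 genes and the nearest tandem start (with a partner symbol), all members over the 5 genes with most members or over a listed gene, and those nearest the limit of the rule. Genes downstream of a member, thr-4 and the amino acid and kinase genes were named after their values were seen. Splice-site dinucleotides need a genome, and a list of RNA 3′-end factors needs product names, so neither was analysed here. Alternatives varied the overlap, length, reach, partner ends, 1 transcript per assembly gene and shared introns.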

Additional observations from a re-analysis of the deposited data

How the results depend on the processing

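Of 76 recomputed values, 55 stayed within 1.5 times of a count, within the interval of a share or median or on the same side of a test, and 0 reversed. Requiring 50% of the antisense exonic length to overlap gave 447 transcripts (25.9% of the antisense), a median overlap of 934 bp and reach of 212 bp, 66.9% with a single exon, 15.2% with a convergent next gene and 43.0% starting within 500 bp of a tandem start. An overlap of at least 100 bp gave a median overlap of 655 bp. A reach of at least 100 bp gave a share of 27.3% and a median reach of 561 bp. A reach of at least 200 bp gave 23.0%, 680.5 bp, 57.3% with a single exon and 30.6% near a tandem start. A length of at least 400 nt gave 40.8%, a median overlap of 668 bp and a median reach of 506 bp. Each of these limits removes short overlaps, reaches or transcripts by its construction. Counting 1 transcript per assembly gene, the 1 with the largest overlap, gave 74.8% with a single exon. With all transcripts counted, the single-exon difference from head-to-head transcripts was -8.06 points (adjusted p = 0.0256, Fisher's exact test), past the threshold that the count per assembly gene missed. Of 60 named members, 39 kept a reach of at least 200 bp and 33 were the 1 transcript kept per assembly gene.

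No paired analysis was possible because the file pools the replicates and holds no value per library. No replicate was left out, for want of such values. Assembled ends and the depth behind each transcript limit every distance given here. The splice-site reading that was planned was not run.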
